A study of Mus musculus with 6 samples.

Results

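The 38 genes described here encode 23 integrin subunits and 15 proteins that connect integrins to actin, and they were taken by gene symbol from a table of 56980 genes. They are 15 α chains, 8 β chains, the ILK complex (Ilk, Parva, Parvb, Lims1, Lims2), the kindlins (Fermt1, Fermt2, Fermt3) and 7 plaque proteins (Vcl, Pxn, Ptk2, Zyx, Tns1, Tns2, Tns3). The rule lists the genes by name and sets no threshold on a measured value. All 38 symbols were found, and 34 passed the filter of a mean of at least 1 TPM (a level per transcript length, scaled to one total per library) over the 6 libraries. Itga10, Itga11, Itgb8 and Fermt1 did not pass it, with no library above 1.5 TPM, and were not tested.

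The material was whole lung of NSG mice, an immunodeficient strain without mature T, B and natural killer cells, 5 weeks after human breast cancer cells were placed in a mammary fat pad. In the 3 Ctrl libraries the tumour came from MDA-MB-231, an established triple-negative breast cancer line; in the 3 DPP3_KO libraries it came from MDA-MB-231/DPP3 KO. Lungs of both groups came from tumour-bearing mice, there was no tumour-free group, and since the human tumour carried the knockout, the Dpp3 level of mouse lung does not check it. DPP3 is a cytosolic dipeptidyl peptidase, and the study asked how DPP3 sent out by the tumour in exosomes bears on lung metastasis. The labels do not state whether the knockout cells were 1 clone or whether each library was a separate mouse, so p-values measure the spread between these libraries. The title of the third Ctrl library names the cell line by another number than the other titles do; it was kept in Ctrl.

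Integrins are heterodimers of 1 α and 1 β chain that bind matrix proteins or counter-receptors outside the cell. Talin and the kindlins bind the β tail and switch the receptor on. ILK, PINCH (Lims1, Lims2) and parvin form a scaffold, and vinculin, paxillin, focal adhesion kinase, zyxin and the tensins join at the plaque that holds actin. In lung, laminin-binding integrins such as α3β1 and α6β4 anchor epithelium to the basement membrane, αvβ6 activates latent TGF-β on epithelium, and the β2 integrins serve leucocytes.

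TPM sums to the same total in every library, and the transcript of Scgb1a1, a club cell secretory protein, took 7.16% to 10.1% of it in Ctrl and 21.7% to 28.7% in DPP3_KO. The median log2 change of all 15650 tested genes was -0.60 as deposited (DPP3_KO minus Ctrl), and -0.026 after median-of-ratios scaling, which sets the typical gene of each library to the same level. Members whose direction differs between the scales are named as such. The number of genes above 0 TPM was 22904 to 24477 per library, read depth cannot be had from TPM, and log-scale correlations were 0.916 to 0.957 within groups and 0.878 to 0.928 between them. Lung markers were present, with Sftpc of alveolar type 2 cells at 14519 TPM or more in each library, and 8 lymphocyte and natural killer markers summed to at most 1.02 TPM.

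As deposited, 23 of the 34 tested members were lower in DPP3_KO and 0 were higher (limma, two-sided, Benjamini-Hochberg adjusted p under 0.05 over all tested genes; at an unadjusted p under 0.05, 26 lower and 0 higher). Of all tested genes, 34.0% were lower and 1.38% higher, and at an unadjusted p under 0.05, 48% and 2.26%. The members' median log2 change was -1.11. In 25 members the groups did not overlap with DPP3_KO below, against 51.1% of all genes, and in 0 with DPP3_KO above, against 2.73%. After scaling, 1 member was lower, Itgax, and 0 were higher (limma; at an unadjusted p under 0.05, 12 lower and 1 higher), beside 0.882% lower and 1.90% higher of all genes by the adjusted p, and 11.6% lower and 11.5% higher by the unadjusted p. The scaled median was -0.47, with 26 of 34 below 0. On the scaled values 9 members had groups that did not overlap with DPP3_KO below, namely Itgax, Itga2, Itga6, Itga1, Parvb, Lims1, Lims2, Vcl and Tns1, beside 15.4% of all genes. Itga7 and Itgb4 did so with DPP3_KO above, beside 14.6%. Tested members were longer than other genes, with a median transcript length of 4286.5 bases against 2562 for all tested genes. With scaling and the trend over length removed, 1 member was lower, Itgax (log2 change -2.52, adjusted p = 0.0414), beside 0.575% lower and 1.18% higher of all genes, and the members' median was -0.32. In bulk tissue, fewer cells of a type and less RNA per cell cannot be told apart. The number of lower members as deposited was 5 without Ctrl 1, 0 without Ctrl 2 (21 at an unadjusted p under 0.05) and 8 without DPP3_KO 3, and 17 to 20 without each other library.

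**Figure D1:**
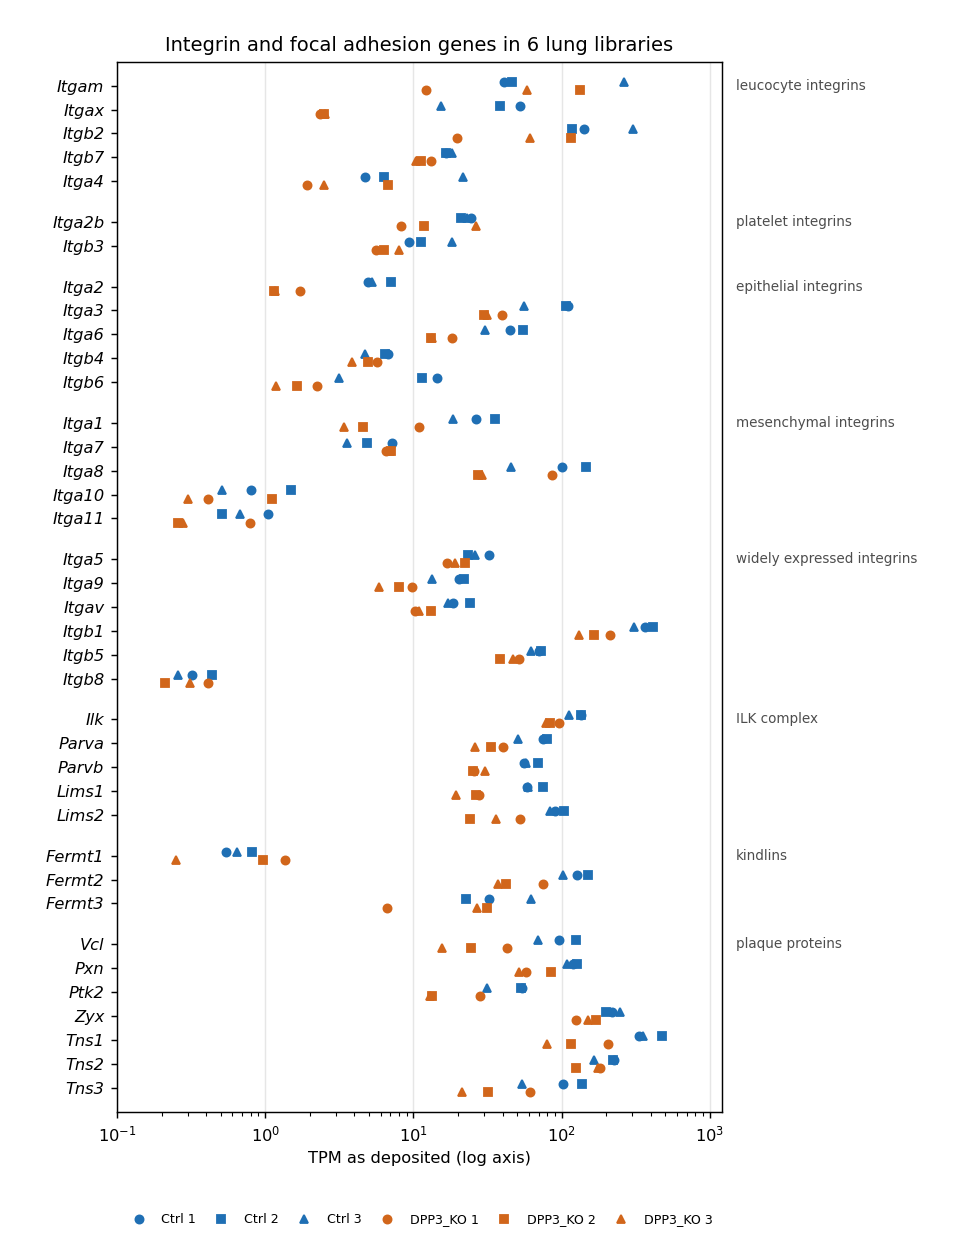
Level of each of the 38 members in each library, as deposited TPM on a log axis, grouped by role; blue marks are the Ctrl libraries, orange marks the DPP3_KO libraries, and the mark shape gives the replicate. Itgax has the largest log2 change of the tested members, with 15.4 to 52.2 TPM in Ctrl and 2.35 to 2.52 TPM in DPP3_KO, while Itgam overlaps widely; the changes of Itgb7, Itgb5, Ilk and Zyx, below 0 on this scale, were above 0 after scaling.

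Itgax encodes αX (CD11c), which pairs with β2 and in mouse lung marks alveolar macrophages and dendritic cells; Itgam encodes αM (CD11b), the α chain of neutrophils and monocytes. Both lie on the plus strand of chromosome 7 and share the β2 partner, yet their levels did not move together, so the 250 bases before each start site are shown (RefSeq, build GRCm38.p6; the deposited table's notes name GRCm39, so these positions are not those of the table). Itgax is at chr7:128129300-128129549 and Itgam at chr7:128062390-128062639. Capitals mark matches on either strand to GAGGAA (the core bound by PU.1, a myeloid factor), GGGCGG (the GC box) or TGANTCA (the AP-1 site), none of which overlap each other here.
Itgax: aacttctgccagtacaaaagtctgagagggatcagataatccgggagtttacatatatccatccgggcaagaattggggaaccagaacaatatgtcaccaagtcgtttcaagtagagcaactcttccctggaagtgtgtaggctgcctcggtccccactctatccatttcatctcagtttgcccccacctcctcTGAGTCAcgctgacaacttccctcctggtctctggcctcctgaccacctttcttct
Itgam: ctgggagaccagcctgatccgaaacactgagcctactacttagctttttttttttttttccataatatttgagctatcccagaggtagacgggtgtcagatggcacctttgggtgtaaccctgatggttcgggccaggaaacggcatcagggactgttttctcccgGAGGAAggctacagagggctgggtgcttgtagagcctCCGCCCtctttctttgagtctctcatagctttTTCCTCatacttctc
The Itgax window holds 1 AP-1 match, starting 56 bases before the start site, and no match to the other motifs. The Itgam window holds 2 PU.1 core matches, 84 and 15 bases before the start, and 1 GC box. Among 32851 promoter windows of this length, 23.3% hold GAGGAA, 32.7% GGGCGG and 6.75% TGANTCA; of the 29 members with an entry, 9, 15 and 2 do. A match is a description of letters only.

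Of the 5 leucocyte integrins, 2 were lower as deposited (Itgax, Itgb7) and 3 did not pass. After scaling, Itgax alone was lower. Of all tested genes, 34.0% were lower as deposited and 0.882% after scaling. Itgax was at 52.2, 38.7 and 15.4 TPM in Ctrl 1 to 3 and at 2.35, 2.51 and 2.52 TPM in DPP3_KO 1 to 3. The DPP3_KO libraries were nearly equal and all below the lowest Ctrl library, Ctrl 3; the ratio of the group means was 14.4-fold. On the log2(TPM + 1) scale, which understates changes of low genes, the change was -3.24 as deposited (SE 0.41, adjusted p = 0.0145) and -2.67 after scaling (SE 0.39, adjusted p = 0.0241). Over its 24 alternative settings the change lay between -3.73 and -2.31 and the adjusted p between 0.00416 and 0.1. It passed in 17 of the 24. As deposited, the call was lost without Ctrl 2 (adjusted p = 0.0572), and after scaling it was lost without Ctrl 1, Ctrl 2 or any 1 of the DPP3_KO libraries (adjusted p 0.0524 to 0.1).

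Itgam varied far more within groups than between them, at 41.1, 46.5 and 264 TPM in Ctrl and 12.1, 132 and 58.2 TPM in DPP3_KO. Ctrl 3 was highest and DPP3_KO 1 lowest, the groups overlapped, and the log2 change was -0.78 (adjusted p = 0.534), turning to 0.070 without Ctrl 3 and 0.13 without DPP3_KO 1. Its exons share 3450 bases with Gm49368 on the same strand, listed at 2.36 to 13.5 TPM. Itgb2, the common β2 chain, was at 142, 118 and 301 TPM in Ctrl and 19.6, 116 and 60.8 TPM in DPP3_KO. As deposited its groups did not overlap but nearly touched, at 118 and 116 TPM, and after scaling they overlapped; its change of -1.70 did not pass (adjusted p = 0.0716). Itga4 encodes the α4 chain that binds VCAM-1 and fibronectin. It was at 4.72, 6.38 and 21.6 TPM in Ctrl and 1.90, 6.74 and 2.48 TPM in DPP3_KO. The groups overlapped, with a change of -1.20 (limma, adjusted p = 0.134). Exons of Itga4 share 1124 bases with Cerkl on the opposite strand, listed at 0.37 to 2.85 TPM. Itgb7, the β7 partner of α4, was at 16.6, 16.6 and 18.2 TPM in Ctrl and 13.1, 11.3 and 10.4 TPM in DPP3_KO, a tight pair of groups that did not overlap. Its change was -0.53 as deposited (adjusted p = 0.0483) and 0.083 after scaling (adjusted p = 0.801), so its direction turned with the scale.

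The 11 neutrophil markers summed to 4100, 7243 and 53257 TPM in Ctrl and 1684, 35019 and 15591 TPM in DPP3_KO. That sum ranked the libraries in the same order as Itgam, but single markers did not all do so. Csf3r was lower in DPP3_KO 3 (71.9 TPM) than in Ctrl 1 (131 TPM), Retnlg was highest in DPP3_KO 2 and Ltf in DPP3_KO 3. Of the 11 markers, 0 passed in either direction (limma, also 0 at an unadjusted p under 0.05). None was at 0 in all libraries, and Ly6g ranged from 1.11 to 72.0 TPM. Ctrl 3 and DPP3_KO 2 were highest for this sum, as they were for Itgam and Itga4. Of 10 alveolar macrophage markers, 7 were lower as deposited and 5 after scaling, and their sum was 1331 to 2996 TPM in Ctrl and 318 to 1818 TPM in DPP3_KO. Mrc1, the mannose receptor, was at 50.3, 47.0 and 45.5 TPM in Ctrl and 9.34, 9.86 and 9.08 TPM in DPP3_KO. Siglecf, the lectin that marks these cells, was at 14.4, 15.4 and 6.60 TPM in Ctrl and 0.45, 0.88 and 0.25 TPM in DPP3_KO. Marco and Chil3, of the same list, were instead highest in Ctrl 3 and DPP3_KO 2, the libraries highest for the neutrophil sum. Marco was at 256 TPM in Ctrl 3 and 244 TPM in DPP3_KO 2. Chil3 was at 956, 755 and 2347 TPM in Ctrl and 135, 1404 and 282 TPM in DPP3_KO. In DPP3_KO 3 it was thus below every Ctrl library, and its change was -1.66 as deposited (limma, adjusted p = 0.149). Fabp4, a lipid-binding protein of the list, was at 48.3 to 82.4 TPM in Ctrl and 62.4 to 72.2 TPM in DPP3_KO, and its change was 0.16 as deposited (adjusted p = 0.590) and 0.81 after scaling (adjusted p = 0.151). The 9 monocyte and interstitial macrophage markers summed to 7635 to 9633 TPM in Ctrl and 3564 to 4766 TPM in DPP3_KO. Most of that sum was Lyz2, at 7175 to 9072 TPM in Ctrl and 3172 to 4275 TPM in DPP3_KO. C1qa, of the same list, overlapped between groups, at 80.8 to 199 TPM in Ctrl and 78.5 to 409 TPM in DPP3_KO. As deposited, 3 of 9 were lower and 6 did not pass, and after scaling 0 were lower (limma, 1 at an unadjusted p under 0.05). The part of these cells in the leucocyte integrin values was not tested. Of all tested genes, 34.0% were lower as deposited and 0.882% after scaling, or 11.6% by the scaled unadjusted p.

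**Figure D2:**
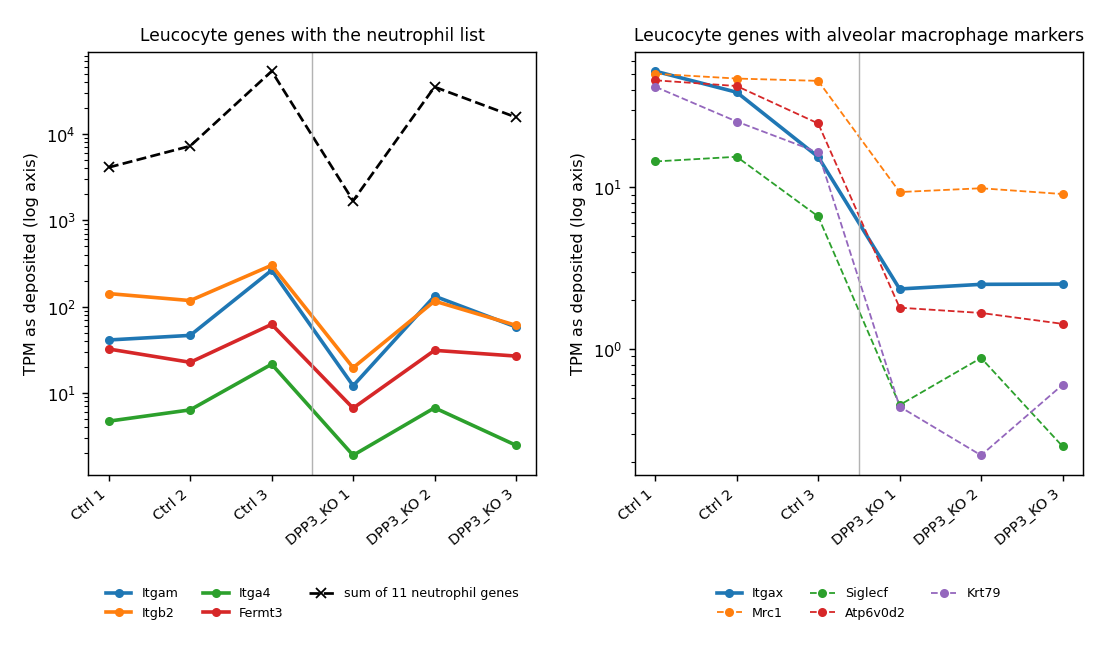
Deposited TPM on log axes against the 6 libraries, with a grey line between Ctrl and DPP3_KO. Left, Itgam, Itgb2, Itga4 and the kindlin Fermt3 with the summed level of 11 neutrophil genes, all high in Ctrl 3 and low in DPP3_KO 1; right, Itgax with 4 of the 10 alveolar macrophage markers, chosen after their values were seen because they lie lower in DPP3_KO; Marco, Chil3 and Fabp4 of the same list are not drawn and overlap between groups.

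The integrin of platelets is αIIbβ3, the fibrinogen receptor, encoded by Itga2b and Itgb3. Itga2b was at 24.4, 20.9 and 23.1 TPM in Ctrl and 8.23, 11.8 and 26.4 TPM in DPP3_KO. DPP3_KO 3 was above all Ctrl libraries, DPP3_KO 1 and 2 below them, and the change of -0.68 did not pass (adjusted p = 0.182) and was -0.060 after scaling and 0.037 with the length trend also removed. Itgb3 was at 9.40, 11.3 and 18.1 TPM in Ctrl and 5.61, 6.30 and 7.94 TPM in DPP3_KO, without overlap; it fell by 0.83 as deposited (adjusted p = 0.0486) and was at -0.24 after scaling (adjusted p = 0.674) and 0.010 with the length trend also removed. The 8 platelet and megakaryocyte markers summed to 193 to 347 TPM in Ctrl and 125 to 470 TPM in DPP3_KO, highest in DPP3_KO 3. As deposited, 1 of 8 was lower, beside 34.0% of all tested genes. The part of platelets and megakaryocytes in the values of Itga2b was not tested.

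Of the 5 epithelial integrins, 4 were lower as deposited (Itga2, Itga3, Itga6, Itgb6) and Itgb4 did not pass. After scaling 0 passed (limma, 4 lower at an unadjusted p under 0.05). Among all tested genes, 34.0% were lower as deposited and 0.882% after scaling, or 11.6% by the scaled unadjusted p. Itga2, the collagen-binding α2 chain, was at 4.92, 7.01 and 5.26 TPM in Ctrl and 1.73, 1.14 and 1.17 TPM in DPP3_KO. Its groups stayed apart on both scales, with a change of -1.52 as deposited (SE 0.24, adjusted p = 0.0145) and -1.04 after scaling (SE 0.21, adjusted p = 0.0552). Itga6, the laminin-binding α6 chain, was at 44.9, 55.0 and 30.3 TPM in Ctrl and 18.2, 13.2 and 13.3 TPM in DPP3_KO, and changed by -1.45 (adjusted p = 0.0157) or, scaled, -0.82 (adjusted p = 0.113). Itga3, the α3 chain and the most abundant of the 5, was at 111, 107 and 55.6 TPM in Ctrl and 39.6, 29.8 and 31.4 TPM in DPP3_KO. Ctrl 3 was the lowest Ctrl library for it, and its change was -1.36 as deposited (adjusted p = 0.0193) and -0.71 after scaling (adjusted p = 0.199).

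Itgb6, the β6 chain, which pairs with αv alone, was at 14.4, 11.5 and 3.17 TPM in Ctrl and 2.25, 1.63 and 1.19 TPM in DPP3_KO. Ctrl 3 lay nearer to the DPP3_KO libraries than to the other Ctrl libraries. The change was -1.81 (SE 0.49, adjusted p = 0.0298) and, scaled, -1.31 (adjusted p = 0.154), with the groups then overlapping. Itgb4, the β4 partner of α6 at hemidesmosomes, was at 6.76, 6.43 and 4.68 TPM in Ctrl and 5.69, 4.96 and 3.86 TPM in DPP3_KO. These groups overlapped as deposited at a change of -0.25 (adjusted p = 0.392), and after scaling lay apart with DPP3_KO above at 0.30 (adjusted p = 0.368). Beside these, 7 of 8 alveolar type 1 markers were lower as deposited and 2 after scaling, summing to 2719 to 4752 TPM in Ctrl and 947 to 2210 TPM in DPP3_KO. Of 7 alveolar type 2 markers 4 were lower as deposited and 0 scaled (limma; 3 at an unadjusted p under 0.05), with sums of 25857 to 48260 TPM and 18495 to 29344 TPM. As deposited, 4 of 6 club cell and 5 of 8 ciliated cell markers were higher, the ciliated sums being 631 to 860 TPM in Ctrl and 1058 to 1153 TPM in DPP3_KO; after scaling, 2 and 6 of them were higher. Basal cell markers summed to 0.85 to 1.91 TPM in Ctrl and 2.5 to 5.53 TPM in DPP3_KO. The part of these cells in the epithelial integrin values was not tested. Of all tested genes, 34.0% were lower and 1.38% higher as deposited. After scaling, 0.882% were lower and 1.90% higher, and 11.6% were lower at the unadjusted p.

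Among the integrins of mesenchyme and muscle, Itga1 was lower and Itga7 and Itga8 did not pass. Itga1, the α1 chain that binds collagen IV, was at 26.4, 35.4 and 18.4 TPM in Ctrl and 10.9, 4.56 and 3.40 TPM in DPP3_KO. The groups did not overlap on either scale, and it fell by 2.02 as deposited (SE 0.41, adjusted p = 0.0178); after scaling the change was -1.42 (adjusted p = 0.0999). It shares 685 exon bases with Gm49395 on the same strand, listed at 1.62 to 5.82 TPM. Itga8, the α8 chain that binds nephronectin, was among the most abundant α chains, at 101, 146 and 45.4 TPM in Ctrl and 86.5, 27.2 and 28.8 TPM in DPP3_KO. DPP3_KO 1 lay among the Ctrl libraries, and its change of -1.08 did not pass (adjusted p = 0.155).

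Itga7, the laminin-binding α7 chain of muscle, was the one tested member with a change above 0 as deposited. It was at 7.16, 4.84 and 3.56 TPM in Ctrl and 6.54, 7.05 and 6.91 TPM in DPP3_KO, with Ctrl 1 above all DPP3_KO libraries. The change was 0.38 as deposited (adjusted p = 0.252) and 0.94 after scaling, where the groups no longer overlapped (SE 0.23, adjusted p = 0.0839). Over 24 alternative settings the change stayed between 0.18 and 1.15, and it did not pass in any of them (limma; adjusted p 0.0759 to 0.564). Markers of cardiac muscle, which in mice also sheathes pulmonary veins, were higher in 5 of 8 cases and summed to 474 to 946 TPM in Ctrl and 1745 to 1927 TPM in DPP3_KO. Smooth muscle markers were higher in 1 of 9 cases as deposited and 2 after scaling, with sums of 165 to 605 TPM and 442 to 1016 TPM. Their part in the Itga7 values was not tested. Of all tested genes, 1.38% were higher as deposited and 1.90% after scaling. Itga10 and Itga11, collagen-binding chains of cartilage and fibroblasts, were at 0.30 to 1.5 TPM and 0.26 to 1.04 TPM.

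Of the 5 tested widely expressed integrins, 4 were lower as deposited (Itga9, Itgav, Itgb1, Itgb5). After scaling 0 were lower (limma, 1 at an unadjusted p under 0.05). Among all tested genes, 34.0% were lower as deposited and 0.882% after scaling, or 11.6% by the scaled unadjusted p. Itgb1, the partner of most α chains and the most abundant integrin subunit, was at 364, 412 and 307 TPM in Ctrl and 212, 165 and 132 TPM in DPP3_KO. No DPP3_KO library reached the lowest Ctrl library, and it fell by 1.10 (SE 0.22, adjusted p = 0.0182); after scaling the change was -0.44 (adjusted p = 0.251). Itga9, whose chain binds tenascin and VCAM-1, was at 20.2, 21.8 and 13.4 TPM in Ctrl and 9.86, 7.94 and 5.89 TPM in DPP3_KO, with changes of -1.13 (adjusted p = 0.0217) and, scaled, -0.52 (adjusted p = 0.208). Itgav, the αv chain of RGD-binding integrins, was at 18.5, 24.0 and 17.2 TPM in Ctrl and 10.2, 13.1 and 10.9 TPM in DPP3_KO. Its change was -0.75 as deposited (adjusted p = 0.0294), -0.13 after scaling and 0.16 with the length trend also removed, so it stood close to the change of the typical gene.

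Itgb5, a β partner of αv that binds vitronectin, was at 71.0, 72.2 and 61.9 TPM in Ctrl and 51.3, 38.5 and 46.7 TPM in DPP3_KO; its change of -0.58 (adjusted p = 0.0413) became 0.066 after scaling. Itga5, the fibronectin receptor α5, was at 32.3, 23.4 and 26.0 TPM in Ctrl and 16.8, 22.2 and 19.2 TPM in DPP3_KO, and its change of -0.47 did not pass (adjusted p = 0.0984) and was 0.17 after scaling. Both therefore moved about as much as the median gene. Itgb8, whose chain pairs with αv, was at 0.21 to 0.44 TPM in all libraries.

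All 5 ILK complex genes were lower as deposited and 0 after scaling (limma, 2 lower at an unadjusted p under 0.05). Among all tested genes, 34.0% were lower as deposited and 0.882% after scaling, or 11.6% by the scaled unadjusted p. Ilk, the pseudokinase at the centre of the scaffold, was at 135, 135 and 112 TPM in Ctrl and 96.7, 83.6 and 78.7 TPM in DPP3_KO; it changed by -0.56 as deposited (adjusted p = 0.0414) and by 0.095 after scaling (adjusted p = 0.775). Its exons share 2106 bases with Taf10 on the opposite strand, itself at 109 to 125 TPM in Ctrl and 85.8 to 111 TPM in DPP3_KO. Whether the counting used strand is not given in the sources used here. Lims1, encoding PINCH1, was at 58.7, 75.3 and 59.1 TPM in Ctrl and 27.6, 26.3 and 19.3 TPM in DPP3_KO. It kept its groups apart on both scales and fell by 1.37 as deposited (SE 0.21, adjusted p = 0.0145), the scaled change being -0.73 (SE 0.16, adjusted p = 0.0652).

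Lims2, encoding PINCH2, was at 90.1, 104 and 83.2 TPM in Ctrl and 52.7, 24.0 and 36.4 TPM in DPP3_KO, with changes of -1.33 (adjusted p = 0.0192) and -0.68 scaled (adjusted p = 0.261). Parva, the α-parvin that binds actin, was at 75.5, 79.8 and 50.5 TPM in Ctrl and 40.3, 33.3 and 26.1 TPM in DPP3_KO, with changes of -1.02 (adjusted p = 0.0238) and -0.37 scaled (adjusted p = 0.336). Parvb, its β paralogue, was at 55.8, 69.3 and 57.5 TPM in Ctrl and 25.6, 25.3 and 30.6 TPM in DPP3_KO, with changes of -1.14 (adjusted p = 0.0145) and -0.49 scaled (adjusted p = 0.206). Changes within the scaffold ranged from -0.56 for Ilk to -1.37 for Lims1 as deposited.

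The kindlins differ by cell type: kindlin-1 (Fermt1) in epithelium, kindlin-2 (Fermt2) in most adherent cells and kindlin-3 (Fermt3) in blood cells. Fermt2 was at 127, 151 and 102 TPM in Ctrl and 75.1, 42.0 and 37.4 TPM in DPP3_KO, without overlap, and fell by 1.33 as deposited (SE 0.30, adjusted p = 0.0201), the scaled change being -0.68 (adjusted p = 0.211). Fermt3 was at 32.3, 22.7 and 62.4 TPM in Ctrl and 6.67, 31.2 and 26.8 TPM in DPP3_KO. The groups overlapped, Ctrl 3 was highest and DPP3_KO 1 lowest, as for Itgam, and the change of -0.96 did not pass (adjusted p = 0.229). Fermt1 was at 0.25 to 1.35 TPM.

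Among the 7 plaque genes, 5 were lower as deposited (Vcl, Pxn, Ptk2, Zyx, Tns1), and Tns2 and Tns3 did not pass. After scaling 0 passed (limma, 2 lower at an unadjusted p under 0.05). Of all tested genes, 34.0% were lower as deposited and 0.882% after scaling, or 11.6% by the scaled unadjusted p. Vcl, encoding vinculin, which links talin to actin, was at 95.7, 125 and 69.6 TPM in Ctrl and 42.7, 24.5 and 15.6 TPM in DPP3_KO. It fell by 1.85 (SE 0.38, adjusted p = 0.0183), the largest fall of the plaque genes, and its scaled change was -1.20 (SE 0.34, adjusted p = 0.109). Its exons share 2090 bases with Ap3m1 on the opposite strand, itself at 31.1 to 48.5 TPM in Ctrl and 13.1 to 17.0 TPM in DPP3_KO. Tns1, encoding tensin-1 of fibrillar adhesions and the most abundant plaque gene in Ctrl, was at 331, 478 and 355 TPM in Ctrl and 207, 116 and 80.2 TPM in DPP3_KO. Its changes were -1.61 as deposited (SE 0.35, adjusted p = 0.0193) and -0.96 scaled (adjusted p = 0.152), without overlap on either scale.

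Tns2, encoding another tensin, was at 224, 221 and 167 TPM in Ctrl and 180, 125 and 177 TPM in DPP3_KO. In contrast with Tns1 its groups overlapped, with a change of -0.35 as deposited (adjusted p = 0.231) and 0.31 after scaling (adjusted p = 0.510). Tns3, encoding the tensin-3 paralogue, was at 103, 137 and 53.7 TPM in Ctrl and 61.1, 32.0 and 21.2 TPM in DPP3_KO; the change of -1.37 did not pass (adjusted p = 0.0528). Ptk2, encoding focal adhesion kinase, was at 54.2, 53.3 and 31.4 TPM in Ctrl and 28.2, 13.3 and 13.0 TPM in DPP3_KO, and changed by -1.35 (adjusted p = 0.0278) or -0.71 scaled (adjusted p = 0.268). Pxn, encoding the adaptor paxillin, was at 119, 127 and 109 TPM in Ctrl and 57.9, 85.4 and 51.4 TPM in DPP3_KO, and changed by -0.89 (adjusted p = 0.0251) or -0.24 scaled (adjusted p = 0.437). Zyx, encoding zyxin, which gathers at strained actin, was at 220, 199 and 249 TPM in Ctrl and 126, 171 and 150 TPM in DPP3_KO, and its change of -0.58 (adjusted p = 0.0467) became 0.076 after scaling. Capillary endothelium markers were lower in 11 of 13 cases as deposited and 3 after scaling, with sums of 2557 to 3250 TPM in Ctrl and 650 to 1223 TPM in DPP3_KO. Pericyte markers were lower in 3 of 7 cases as deposited and 0 after scaling (limma; 2 at an unadjusted p under 0.05), and fibroblast markers in 0 of 9 as deposited (limma; 3 at an unadjusted p under 0.05), with fibroblast sums of 2999 to 5435 TPM and 2623 to 4638 TPM. Their part in the adaptor and plaque values was not tested. Of all tested genes, 34.0% were lower as deposited and 0.882% after scaling. By the unadjusted p, 48% were lower as deposited and 11.6% after scaling.

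**Figure D3:**
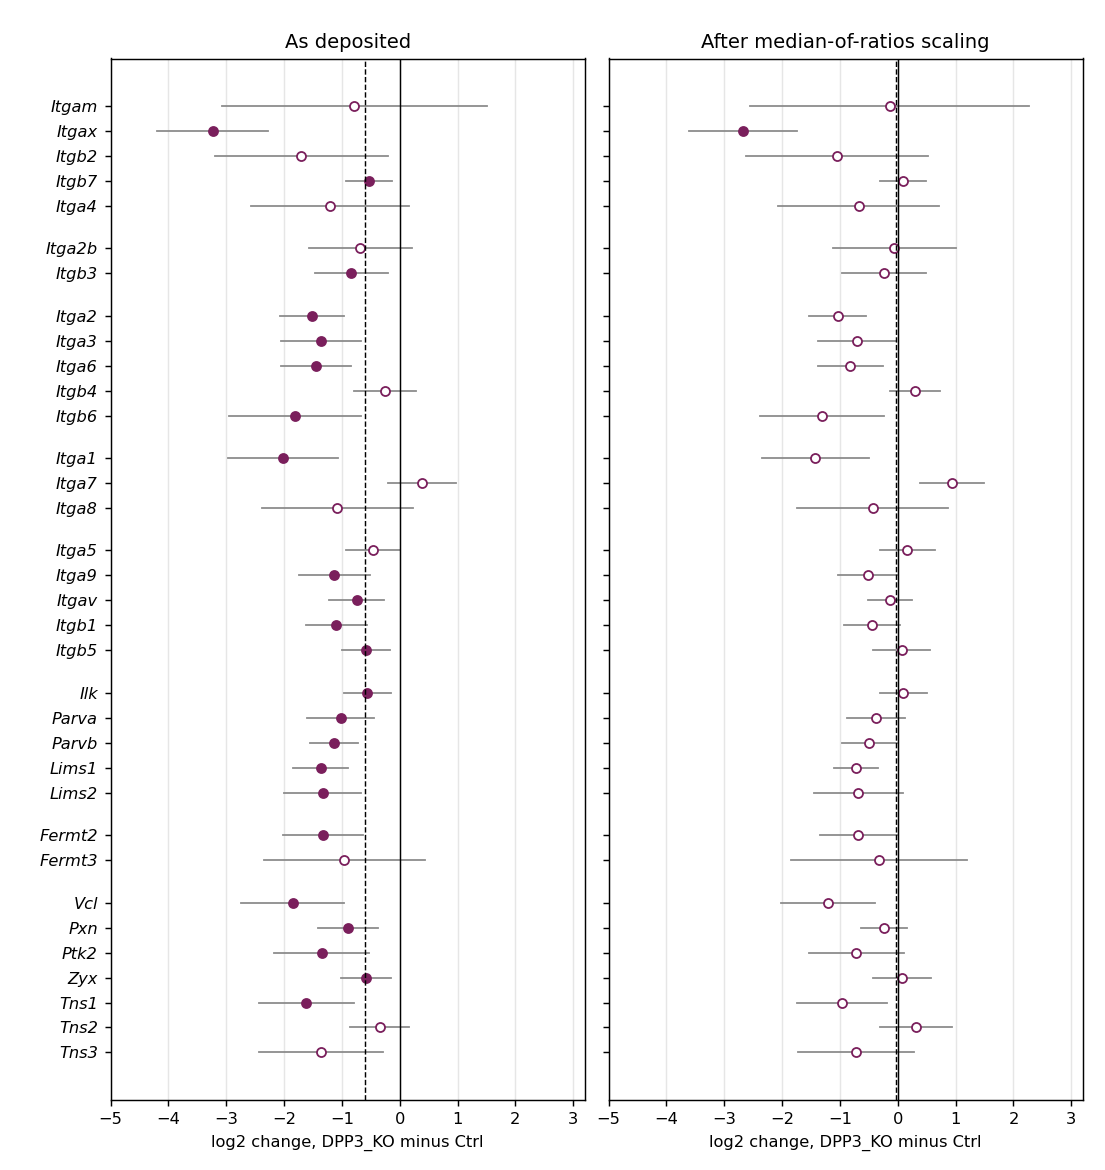
Change of each of the 34 tested members in log2(TPM + 1), DPP3_KO minus Ctrl, with its 95% interval from limma; filled circles passed an adjusted p of 0.05, the solid line is 0 and the dashed line the median of all tested genes. As deposited (left) 23 members passed around a dashed line at -0.60; after median-of-ratios scaling (right) Itgax alone passed, and 8 members lie above 0.

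The ratio of partner genes within a library does not depend on how the library is scaled, though a trend over transcript length can move it. Of 20 such ratios, 6 (30.0%) had groups that did not overlap. Among all genes after scaling, 15.4% had groups that did not overlap with DPP3_KO below and 14.6% with DPP3_KO above. Separated groups were therefore not particular to these ratios. Each of the 6 had the smallest p that 3 against 3 libraries allow (exact permutation test, two-sided, p = 0.1). None passed after adjustment over the 20 (adjusted p = 0.333). Itga6 per Itgb4, the chains of α6β4, was 6.65, 8.55 and 6.47 in Ctrl and 3.2, 2.67 and 3.45 in DPP3_KO, a mean log2 difference of -1.21. Itgb4 per Itgb1, the β chains that α6 pairs with, was 0.0186, 0.0156 and 0.0152 in Ctrl and 0.0269, 0.0300 and 0.0292 in DPP3_KO, a difference of 0.80. Itga1 per Itgb1 was 0.0726, 0.0858 and 0.06 in Ctrl and 0.0513, 0.0276 and 0.0258 in DPP3_KO, a difference of -1.12.

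Within the ILK complex, Lims1 per Ilk was 0.434, 0.557 and 0.525 in Ctrl and 0.285, 0.315 and 0.246 in DPP3_KO, a difference of -0.84. Parva per Ilk was 0.558, 0.591 and 0.449 in Ctrl and 0.416, 0.398 and 0.331 in DPP3_KO, a difference of -0.48; with scaling and the length trend removed, an alternative added after seeing the data, it was -0.14 and the groups overlapped. Both ratios put Ilk, whose exons overlap those of Taf10, higher relative to its partners in DPP3_KO. By contrast, Lims2 per Lims1 (difference 0.046) and Parvb per Parva (-0.12) overlapped. For the tensins, Tns2 per Tns1 was 0.677, 0.462 and 0.469 in Ctrl and 0.872, 1.08 and 2.21 in DPP3_KO, a difference of 1.27. Tns2 exceeded Tns1 in DPP3_KO 2 and 3 and in no Ctrl library. Among the leucocyte pairs, Itgax per Itgb2 (0.368, 0.329 and 0.0511 in Ctrl, 0.12, 0.0217 and 0.0415 in DPP3_KO) and Itgam per Itgb2 (0.290, 0.395 and 0.875 in Ctrl, 0.618, 1.14 and 0.958 in DPP3_KO) overlapped between groups, since Ctrl 3 lay with the DPP3_KO libraries. The number of ratios without overlap was 11 without Ctrl 3, 12 without DPP3_KO 1 and 10 without DPP3_KO 2. Leaving out a library cannot make separate groups overlap, so this number could only stay or rise. No share of all genes is given for such smaller sets, so nothing particular to these ratios is read from the rise.

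**Figure D4:**
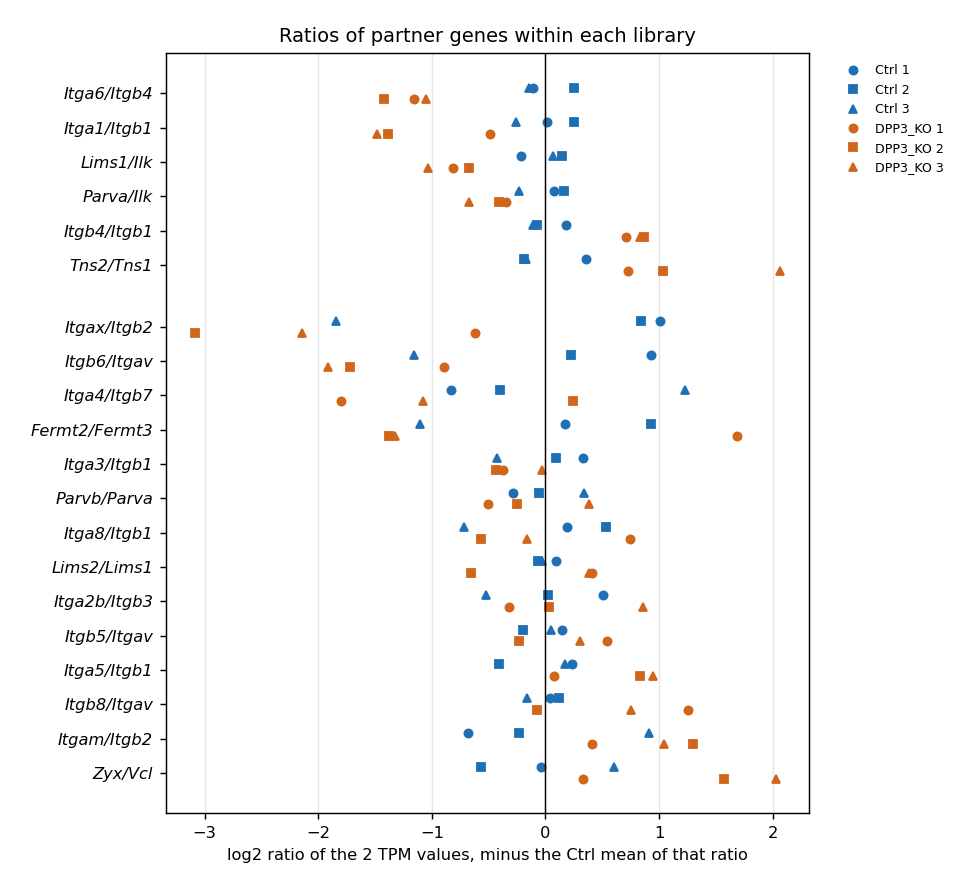
Log2 ratio of 2 partner genes in each library, with the Ctrl mean of that ratio set to 0; blue marks are Ctrl, orange marks DPP3_KO, shapes are replicates, and the 6 ratios at the top are those whose groups do not overlap. Tns2 per Tns1 and Itgb4 per Itgb1 lie above 0 in all 3 DPP3_KO libraries and the other 4 of those ratios below it.

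Summed over the 15 α chains, transcript levels were 491, 538 and 540 TPM in Ctrl and 226, 281 and 211 TPM in DPP3_KO. The share of each chain in that sum, which no library scaling alters, is a description without a test. Itgax made up 10.6%, 7.18% and 2.85% in Ctrl and 1.04%, 0.893% and 1.19% in DPP3_KO (6.89% ± 3.90 against 1.04% ± 0.15, SD, n = 3). Itgam ranged from 8.38% to 48.8% in Ctrl and from 5.36% to 47.1% in DPP3_KO, the top share in Ctrl 3, DPP3_KO 2 and DPP3_KO 3. Itga8 and Itga3 led where Itgam did not: Itga8 was 20.6%, 27.0% and 8.41% in Ctrl and 38.3%, 9.69% and 13.7% in DPP3_KO, and Itga3 was 22.6%, 19.9% and 10.3% in Ctrl and 17.5%, 10.6% and 14.9% in DPP3_KO. Shares of Itga7 (1.01% ± 0.41 and 2.89% ± 0.38), Itga5 (5.25% ± 1.18 and 8.14% ± 0.85) and Itgav (3.80% ± 0.63 and 4.78% ± 0.35, Ctrl and DPP3_KO, SD, n = 3) lay higher in DPP3_KO without overlap. That of Itga2 lay lower. On scaled levels, 15.4% of all genes had groups that did not overlap with DPP3_KO below, and 14.6% with DPP3_KO above. With Itgam, Itgax and Itga2b left out of the sum, Itga7 still lay higher and Itga2 lower without overlap, while Itga5 and Itgav overlapped and Itga1 and Itga6 lay lower without overlap. The mean difference in share (DPP3_KO minus Ctrl, percentage points) then moved from 1.89 to 3.16 for Itga7, from 2.89 to 5.07 for Itga5, from 0.97 to 1.94 for Itgav and from -0.52 to -0.84 for Itga2. Of the β chains, Itgb1 held 54.9% ± 10.7 of the sum in Ctrl and 55.5% ± 11.2 in DPP3_KO (SD, n = 3), a difference far within the spread. Itgb7 (2.59% ± 0.058 and 3.81% ± 0.49) and Itgb4 (0.91% ± 0.23 and 1.58% ± 0.22, Ctrl and DPP3_KO, SD, n = 3) lay higher in DPP3_KO without overlap.

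**Figure D5:**
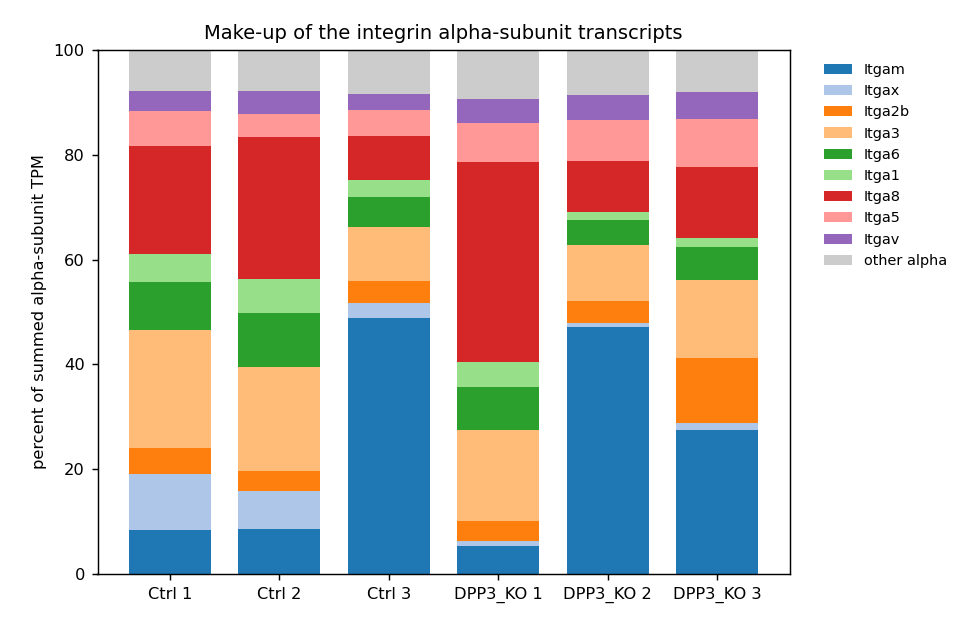
Share of each α chain in the summed α-chain TPM of each library, in percent; chains that reach 5% in some library are coloured and the others are summed in grey. The Itgam share varies between 5.36% and 48.8% across libraries of both groups, and the Itgax share is at most 1.19% in the DPP3_KO libraries.

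Other genes of the pathway showed the same split between the scales. So did all tested genes, of which 34.0% were lower as deposited and 0.882% after scaling. Of 4 further integrin subunits 1 was lower as deposited, Itgad, the αD chain of tissue macrophages, at 3.26, 2.98 and 1.28 TPM in Ctrl and 0.07, 0.18 and 0.05 TPM in DPP3_KO (log2 change -1.62, adjusted p = 0.0177; scaled adjusted p = 0.0660). Itgae (-0.79, adjusted p = 0.0849), Itgal (-1.78, adjusted p = 0.0887) and Itgb2l (-0.59, adjusted p = 0.426) did not pass. Of 14 activators and inhibitors 6 were lower and 0 higher. Tln1, encoding talin-1, was at 133, 125 and 141 TPM in Ctrl and 49.1, 56.5 and 39.1 TPM in DPP3_KO, a change of -1.46 (adjusted p = 0.0145; scaled -0.81, adjusted p = 0.0548). The other talin, Tln2 (-1.17), and Krit1 (-0.68), which binds an inhibitor of β1, were also lower. Rap1a and Rap1b, the small GTPases that recruit talin and whose pathway the study's title names, were at 56.9 to 147 TPM and 82.4 to 326 TPM, and their changes of -0.56 (adjusted p = 0.12) and -0.87 (adjusted p = 0.104) did not pass; after scaling Rap1a stood at 0.094. Both were singled out for the title, after their values had been seen.

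Of 35 further plaque and signalling genes 18 were lower as deposited and 0 higher. Rsu1, which binds PINCH1 in the ILK complex, was at 142, 151 and 149 TPM in Ctrl and 66.6, 55.6 and 45.5 TPM in DPP3_KO, a change of -1.40 (adjusted p = 0.0145; scaled -0.75, adjusted p = 0.0734). Git1 (-1.15), Git2 (-1.12), both partners of paxillin, and the Rac activator Dock1 (-1.57) followed. Of 33 ligands 31 were tested, 12 were lower as deposited and 0 higher, beside 34.0% and 1.38% of all tested genes. Lama3, the laminin α3 chain that α3β1 and α6β4 bind, was at 33.1, 54.1 and 15.1 TPM in Ctrl and 4.61, 1.99 and 1.49 TPM in DPP3_KO. Its change was -3.17 as deposited (SE 0.49, adjusted p = 0.0145) and -2.61 after scaling (adjusted p = 0.0440), the one ligand lower on both scales; with the length trend also removed it did not pass (-2.32, adjusted p = 0.0601). Col4a1 (-2.06) and Col4a2 (-1.81), the collagen IV chains of basement membrane, and Icam1 (-1.43), a counter-receptor of β2 integrins, were lower as deposited. After scaling, none of the other 3 lists had a gene that passed (limma, 1, 3 and 8 lower and 0, 2 and 1 higher at an unadjusted p under 0.05, in the order given). Of all tested genes, 11.6% were lower and 11.5% higher after scaling at that unadjusted p. As deposited, none of the 4 lists had a gene that was higher, at either p, beside 1.38% of all tested genes by the adjusted p and 2.26% by the unadjusted p.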

How the data were processed

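Gene levels of 6 mouse lungs (3 Ctrl, 3 DPP3_KO) came from 1 table of TPM deposited by the authors. The submitters' processing notes name HISAT2, StringTie and RSEM, and the build GRCm39, without versions; annotation, strand setting and any removal of human reads were not stated there. Libraries were made with a TruSeq RNA kit, per the labels' protocols. TPM holds no read depth, so no counting interval was given. A value of 1 was added to the deposited TPM before log2, and 15650 genes averaging 1 TPM or more entered a single limma fit (limma 3.58.1, R 4.3.3, eBayes with an intensity trend). Tests were two-sided, p-values were adjusted by Benjamini-Hochberg across those genes at a threshold of 0.05, and intervals are 95%. Median-of-ratios scaling divided each library by a size factor (1.19 to 1.36 in Ctrl, 0.700 to 0.909 in DPP3_KO). A length trend was removed with lowess (span 0.3) as an alternative. The code was tested on simulated data. Members and lists were chosen with earlier results of these data known. All 38 members were named, with every library's value for members past the threshold, the 2 most abundant of each role and those against their role's direction. From each pathway list the 4 genes with the smallest p were named, except 1 that is not reported here. Exon overlaps were read from GENCODE M21, which held all 38 members; 13 share exon bases with another gene.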

Additional observations from a re-analysis of the deposited data

How the results depend on the processing

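The number of members lower in DPP3_KO, 23 as deposited, was 15 without the filter on low values, 1 after median-of-ratios scaling, 1 after quantile normalization, 3 when TPM was rescaled without Scgb1a1, 1 with scaling and the length trend removed, and 0 to 20 leaving out 1 library (0 to 3 with scaling). It stayed within 1.5 times under both other pseudocounts, the stricter filter, no intensity trend and sample quality weights. The members' median, -1.11, was -0.47 after scaling, -0.51 after quantile normalization, -0.81 without Scgb1a1, -0.32 with the length trend removed, and -1.22 to -1.04 leaving out 1 library (-0.52 to -0.41 with scaling). Genes lower in the 4 pathway lists numbered 0, 0, 0 and 1 after scaling. The labels do not state that replicate numbers pair the samples. Correlations of deviations from the group means were 0.27, -0.21 and 0.15 for numbers 1 to 3, and -0.48 to 0.41 for unlike numbers. With so few libraries these values cannot settle it. With the replicate block 20 members were lower. With the replicate block and scaling 0 were lower (limma, 12 at an unadjusted p under 0.05), at a median of -0.47, with Itgax at an adjusted p of 0.0684. The causes were not tested.

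Signs turned after scaling, with or without the replicate block, for Itgb7 (0.083), Itgb4 (0.30), Itga5 (0.17), Itgb5 (0.066), Ilk (0.095), Zyx (0.076) and Tns2 (0.31). After quantile normalization they turned for Itgb7 (0.14), Itgb4 (0.33), Itga5 (0.20), Itgb5 (0.00543) and Tns2 (0.075), and without Scgb1a1 for Itgb4 (0.010). With the length trend removed they turned for Itgb7 (0.094), Itga2b (0.037), Itgb3 (0.010), Itgb4 (0.55), Itga5 (0.34), Itgav (0.16), Itgb5 (0.12), Zyx (0.075) and Tns2 (0.51). Leaving out 1 library, with or without scaling, gave -1.54 to 0.79 for Itgam, -1.34 to 0.35 for Fermt3, -1.13 to 0.30 for Itga2b, -1.02 to 0.049 for Itgb3, -0.62 to 0.19 for Itgb7, -0.39 to 0.38 for Itgb4, -0.57 to 0.29 for Itga5, -0.67 to 0.27 for Itgb5, -0.65 to 0.21 for Ilk, -0.68 to 0.20 for Zyx and -0.49 to 0.57 for Tns2. Ratios without overlap numbered 6 to 12, a number that leaving out a library can only keep or raise. With the length trend removed, added after seeing the data, 5 of 19 ratios had groups without overlap, all of them among the 6.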
